A study of Arabidopsis thaliana with 12 samples.

Results

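The WRKY genes encode a family of plant transcription factors. They are described here through 45 genes, taken by gene identifier, out of 27655 genes listed for each line in an RNA-seq study of Arabidopsis thaliana seedlings. By the usual division of the family, which is given from general knowledge and not from the files, 9 of the 45 belong to subfamily I, 3 to IIa, 5 to IIb, 8 to IIc, 6 to IId, 5 to IIe and 9 to III. Counts and shares of the family or of a subfamily refer to these listed genes only. The seedlings were 6 days old, had grown in continuous light, and were pooled within each library. There were 4 groups of 3 libraries. The flu1-5 ex1 light group is the flu1-5 ex1 line after 4 h of darkness and then 1 h of light, and the flu1-5 ex1 dark group is that line after 4 h of darkness. The flu1-1 ex1 light and flu1-1 ex1 dark groups are the flu1-1 ex1 line under the same treatments. Both lines carry a mutated flu allele, and all libraries share the ex1 mutation. FLU represses chlorophyll synthesis in darkness. In flu plants a chlorophyll precursor gathers in the dark and gives off singlet oxygen in the chloroplasts when light returns. EX1, or EXECUTER1, is a chloroplast protein through which singlet oxygen from the chloroplast is known to change nuclear gene expression. The comparisons therefore ask how the WRKY genes stand after the return of light in plants with the ex1 mutation, and how this differs between flu alleles. No library came from plants without these mutations or from seedlings kept in the dark for the same total time. Light, the time since the dark harvest and singlet oxygen cannot be told apart within a line, nor can the flu allele and any other difference between the lines.

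WRKY proteins carry a conserved domain with a zinc finger that binds the W-box, a short DNA element with the core TTGAC. Many act in responses to pathogens and to oxidative stress, some as activators and some as repressors, and several WRKY genes hold W-boxes in their own promoters and are targets of the family. Subfamily I proteins carry a pair of WRKY domains, subfamilies IIa to IIe carry a single one, and subfamily III differs in the zinc finger.

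The promoters of WRKY40, WRKY33 and WRKY46, the members with the highest levels in flu1-5 ex1 light, and of WRKY15, the highest member in both dark groups, are shown because the results turn on these genes. Each is the stretch of 300 bases before the annotated gene start, read from the RefSeq genome of build TAIR10.1, 5′ to 3′ on the strand of the gene. Capitals mark the W-box letters TTGACC or TTGACT, or their reverse complements GGTCAA and AGTCAA on the opposite strand. WRKY40 is at chr1:30383261-30383560, plus strand. WRKY33 is at chr2:16107935-16108234, plus strand. WRKY46 is at chr2:19044956-19045255, minus strand. WRKY15 is at chr2:9924586-9924885, plus strand.
WRKY40: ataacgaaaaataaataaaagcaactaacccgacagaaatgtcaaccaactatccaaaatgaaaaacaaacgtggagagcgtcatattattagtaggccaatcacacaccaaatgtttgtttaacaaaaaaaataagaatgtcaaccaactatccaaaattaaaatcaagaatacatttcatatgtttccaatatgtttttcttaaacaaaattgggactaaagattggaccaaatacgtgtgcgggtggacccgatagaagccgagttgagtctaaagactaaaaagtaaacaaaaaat
WRKY33: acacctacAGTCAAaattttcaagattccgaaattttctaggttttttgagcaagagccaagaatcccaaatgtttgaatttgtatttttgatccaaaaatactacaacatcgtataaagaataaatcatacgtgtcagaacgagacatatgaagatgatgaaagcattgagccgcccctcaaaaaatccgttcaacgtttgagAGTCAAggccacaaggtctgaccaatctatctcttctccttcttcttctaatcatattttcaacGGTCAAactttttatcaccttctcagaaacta
WRKY46: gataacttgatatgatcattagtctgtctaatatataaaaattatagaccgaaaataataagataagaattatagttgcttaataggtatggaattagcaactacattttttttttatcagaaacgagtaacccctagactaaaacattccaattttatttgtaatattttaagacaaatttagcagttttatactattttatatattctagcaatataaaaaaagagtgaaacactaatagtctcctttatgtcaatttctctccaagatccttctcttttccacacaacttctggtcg
WRKY15: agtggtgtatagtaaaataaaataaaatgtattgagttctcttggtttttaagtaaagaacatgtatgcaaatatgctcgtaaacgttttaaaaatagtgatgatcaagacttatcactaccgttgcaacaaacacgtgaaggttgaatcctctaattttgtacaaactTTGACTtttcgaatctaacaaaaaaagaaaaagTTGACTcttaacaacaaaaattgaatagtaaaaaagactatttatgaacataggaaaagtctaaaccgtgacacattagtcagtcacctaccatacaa
In these marked forms WRKY33 holds 3 W-boxes in this window and WRKY15 holds 2, while WRKY40 and WRKY46 hold 0. The core TTGAC followed by another letter was not counted, and WRKY40 and WRKY46 hold its reverse complement GTCAA. At least 1 W-box was found for 21 of the 45 members (46.7%), against 32.3% of 27443 promoters of the same length. At least 2 were found for 10 members (22.2%), among them WRKY17, WRKY29, WRKY30 and WRKY53, against 7.91% of all promoters. The G-box CACGTG, searched on both strands, was found for 4 members (8.89%), against 7.09% of all promoters. These are matches of letters and were not tested as binding sites.

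The level of a gene is given in TPM (a share of all transcripts), which the authors deposited for 1 transcript of each gene, and which is scaled by transcript length. FLU had between 13.2 and 17.0 TPM in the flu1-5 ex1 libraries and between 184 and 197 TPM in the flu1-1 ex1 libraries, so the lines were told apart by this transcript. EX1 transcripts stood at 37.1 to 86.3 TPM, so their level does not check the ex1 label. The log2 levels of replicate libraries correlated at 0.996 in every group, and no library stood apart. The 4 leaf markers summed to 20872 to 22011 TPM in flu1-5 ex1 light, 23740 to 23924 TPM in flu1-5 ex1 dark, 20209 to 20801 TPM in flu1-1 ex1 light and 22470 to 23858 TPM in flu1-1 ex1 dark. These sums were lower in light than in dark in both lines without overlap, and 3 of the 4 leaf markers were called lower in light in each line, while RCA was called higher in flu1-5 ex1. The 6 root markers (COBL9, EXPA7, PRP3, CASP1, MYB36 and PIN2) summed to 1.57 to 2.85 TPM in flu1-5 ex1 light, 2.06 to 2.57 TPM in flu1-5 ex1 dark, 1.43 to 1.65 TPM in flu1-1 ex1 light and 2.48 to 3.59 TPM in flu1-1 ex1 dark, and none of them reached the level needed for a test. The part of these markers in the WRKY results was not tested. Nothing says that the replicates were grown separately, so the p-values reflect only how these libraries vary, which may be technical.

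The summed WRKY transcript level was highest in flu1-5 ex1 light. Over the 41 members with the same transcript listed in both lines it was 943 ± 16.7 TPM in flu1-5 ex1 light, 619 ± 2.43 TPM in flu1-5 ex1 dark, 341 ± 8.43 TPM in flu1-1 ex1 light and 479 ± 7.47 TPM in flu1-1 ex1 dark (mean ± SD, n = 3 libraries each). The sum was thus higher in light than in dark in flu1-5 ex1 and lower in light than in dark in flu1-1 ex1, and the 4 groups did not overlap. In these whole seedlings, a change in the cells that express a gene and a change in its RNA per cell cannot be told apart. WRKY31, WRKY41, WRKY55 and WRKY72, with different listed transcripts, are left out of every comparison across lines.

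**Figure D1:**
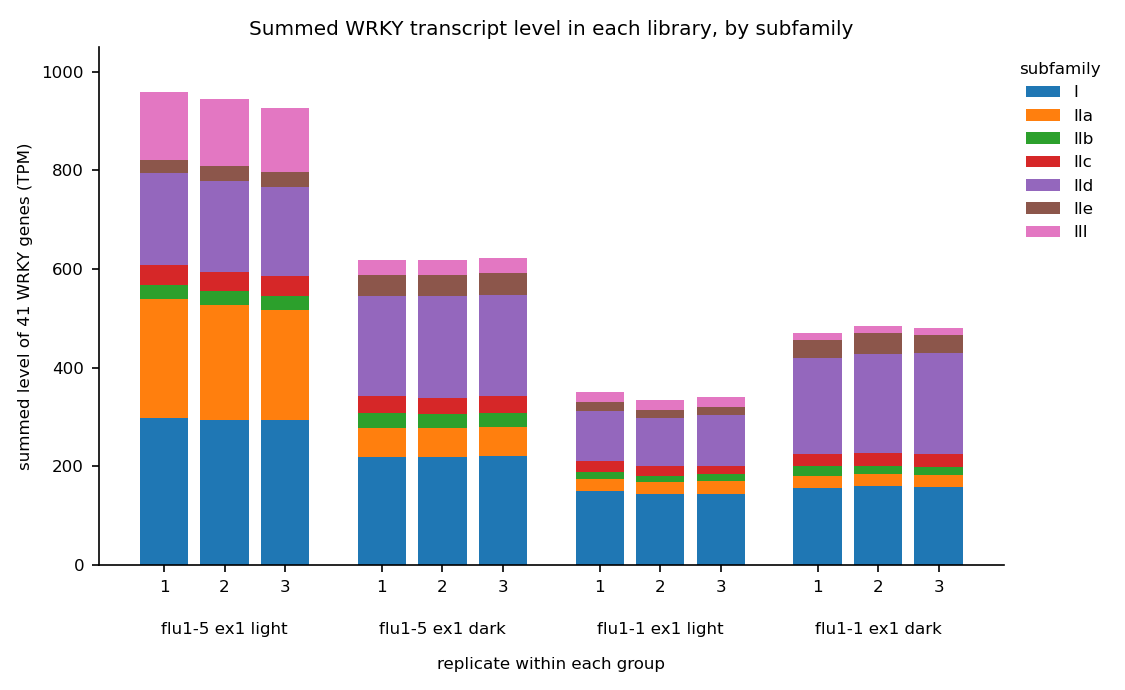
Stacked bars show the summed level (TPM, vertical axis) of 41 WRKY genes in each of the 12 libraries, coloured by subfamily. The flu1-5 ex1 light libraries reach between 926 and 959 TPM and the flu1-1 ex1 light libraries between 334 and 350 TPM. In flu1-5 ex1 light the band of subfamily I is the widest, and those of subfamilies IIa and III are wider than in any other group.

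The subfamilies contributed unequally to these sums. Subfamily I summed to 295 ± 2.45 TPM in flu1-5 ex1 light and 220 ± 0.973 TPM in flu1-5 ex1 dark. In flu1-1 ex1 it summed to 146 ± 3.17 TPM in light and 158 ± 1.81 TPM in dark. It was the largest subfamily in every group except flu1-1 ex1 dark, where subfamily IId was larger. Subfamily IIa summed to 232 ± 9.43 TPM in flu1-5 ex1 light, 57.8 ± 0.865 TPM in flu1-5 ex1 dark, 24.3 ± 1.77 TPM in flu1-1 ex1 light and 24.6 ± 0.911 TPM in flu1-1 ex1 dark. Subfamily III summed to 135 ± 4.37 TPM in flu1-5 ex1 light, 29.96 ± 0.429 TPM in flu1-5 ex1 dark, 20.5 ± 0.331 TPM in flu1-1 ex1 light and 14.4 ± 0.578 TPM in flu1-1 ex1 dark. Subfamily IId was lower in light than in dark in both lines, with 184 ± 1.74 TPM in flu1-5 ex1 light, 204 ± 1.37 TPM in flu1-5 ex1 dark, 101 ± 3.01 TPM in flu1-1 ex1 light and 200.3 ± 4.28 TPM in flu1-1 ex1 dark. The 2 dark groups of subfamily IId overlapped, while both light groups lay below them and apart from each other. Subfamily IIe was also lower in light than in dark in both lines without overlap. It summed to 28.5 ± 1.17 TPM in flu1-5 ex1 light and 43.9 ± 1.56 TPM in flu1-5 ex1 dark. In flu1-1 ex1 it summed to 16.3 ± 0.58 TPM in light and 38.5 ± 2.61 TPM in dark.

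A few genes made up much of the RNA summed over the 41 listed members. WRKY40, WRKY33 and WRKY46 together held 48.8% of the sum in flu1-5 ex1 light, 19.7% in flu1-5 ex1 dark, 14.9% in flu1-1 ex1 light and 8.82% in flu1-1 ex1 dark. WRKY15, WRKY21 and WRKY39, all of subfamily IId, together held 13.4% in flu1-5 ex1 light, 27.0% in flu1-5 ex1 dark, 17.7% in flu1-1 ex1 light and 35.3% in flu1-1 ex1 dark. In flu1-5 ex1 light the order of levels was WRKY40, WRKY33, WRKY46, WRKY15, WRKY18, with no overlap between neighbours. In flu1-5 ex1 dark it was WRKY15, WRKY33, WRKY40, WRKY39, WRKY25, again without overlap between neighbours. In flu1-1 ex1 light the first 3, WRKY33, WRKY15 and WRKY1, overlapped in their libraries, and in flu1-1 ex1 dark WRKY15 stood above WRKY21, WRKY39, WRKY3 and WRKY33, the last 2 overlapping.

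Of the 45 members, 35 reached a mean of 1 TPM over the libraries of a fit and were tested with limma on log2(TPM + 1), where a gene was called at a Benjamini-Hochberg adjusted p under 0.05 over all genes tested. WRKY75 passed this filter in flu1-5 ex1 and in the fit of both lines, and not in flu1-1 ex1 alone. The remaining 10, WRKY8, WRKY31, WRKY38, WRKY41, WRKY42, WRKY51, WRKY54, WRKY55, WRKY62 and WRKY72, stayed at or under 0.741 TPM in every library. They include regulators of defence such as WRKY38 and WRKY62, and 5 of the 9 listed members of subfamily III. Their levels are too low here to compare. Some tested members passed the filter only through the groups where they were high, each with a mean under 1 TPM in another group. These were WRKY30 in both lines, WRKY46 in flu1-1 ex1 and WRKY75 in flu1-5 ex1, and all 3 in the fit of both lines. Their calls in the fits concerned are descriptions and give no support to a count.

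Most tested members were called in light in both lines, 27 of 35 in flu1-5 ex1, where 67.8% of all genes were called, and 24 of 34 in flu1-1 ex1, where 72.6% were. In flu1-5 ex1, 13 of 35 tested members were higher in light than in dark and 14 were lower, where 38.4% of all tested genes were called higher and 29.3% lower. In flu1-1 ex1, 8 of 34 were higher in light and 16 were lower, where 44% of all tested genes were called higher and 28.6% lower. The median light response on the log2(TPM + 1) scale was 0.03 in flu1-5 ex1, where that of all genes was 0.05, and -0.20 in flu1-1 ex1, where that of all genes was 0.12. With quantile normalization, which moved the median of all genes by -0.12 in flu1-5 ex1 and by -0.14 in flu1-1 ex1, the members' median was -0.12 in flu1-5 ex1, where its sign turned, and -0.37 in flu1-1 ex1. The counts of members became 12 higher and 16 lower in flu1-5 ex1, and 8 higher and 20 lower in flu1-1 ex1. Over all genes the split became 5649 higher and 7016 lower in flu1-5 ex1, from 6973 and 5324, and 6386 higher and 6751 lower in flu1-1 ex1, from 7942 and 5155. Without WRKY30, WRKY46 and WRKY75 where they passed the filter in this way, the counts were 12 higher and 13 lower of 33 in flu1-5 ex1, and 6 higher and 16 lower of 32 in flu1-1 ex1. At a change of at least 2-fold as well, 8 members were higher and 4 lower in flu1-5 ex1, where 9.98% and 5.08% of all genes were, and 3 were higher and 7 lower in flu1-1 ex1, where 11.7% and 6.61% were. The 2-fold counts include WRKY30 in both lines, WRKY46 in flu1-1 ex1 and WRKY75 in flu1-5 ex1 as descriptions.

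Of the 34 members tested in both lines, 8 were called higher in light in both, where 34.2% of 17529 genes tested in both were, and 12 were called lower in both, where 23.4% were. The 8 were WRKY1, WRKY11, WRKY17, WRKY30, WRKY32, WRKY46, WRKY48 and WRKY53. The 12 were WRKY3, WRKY4, WRKY15, WRKY21, WRKY22, WRKY26, WRKY29, WRKY39, WRKY45, WRKY47, WRKY69 and WRKY70. WRKY7 and WRKY28 were called higher in flu1-5 ex1 and lower in flu1-1 ex1, as 0.844% of all these genes were. WRKY18, WRKY33 and WRKY40 were called higher in flu1-5 ex1 and not called in flu1-1 ex1, and the remaining 10 tested members were called in 1 line at most.

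**Figure D2:**
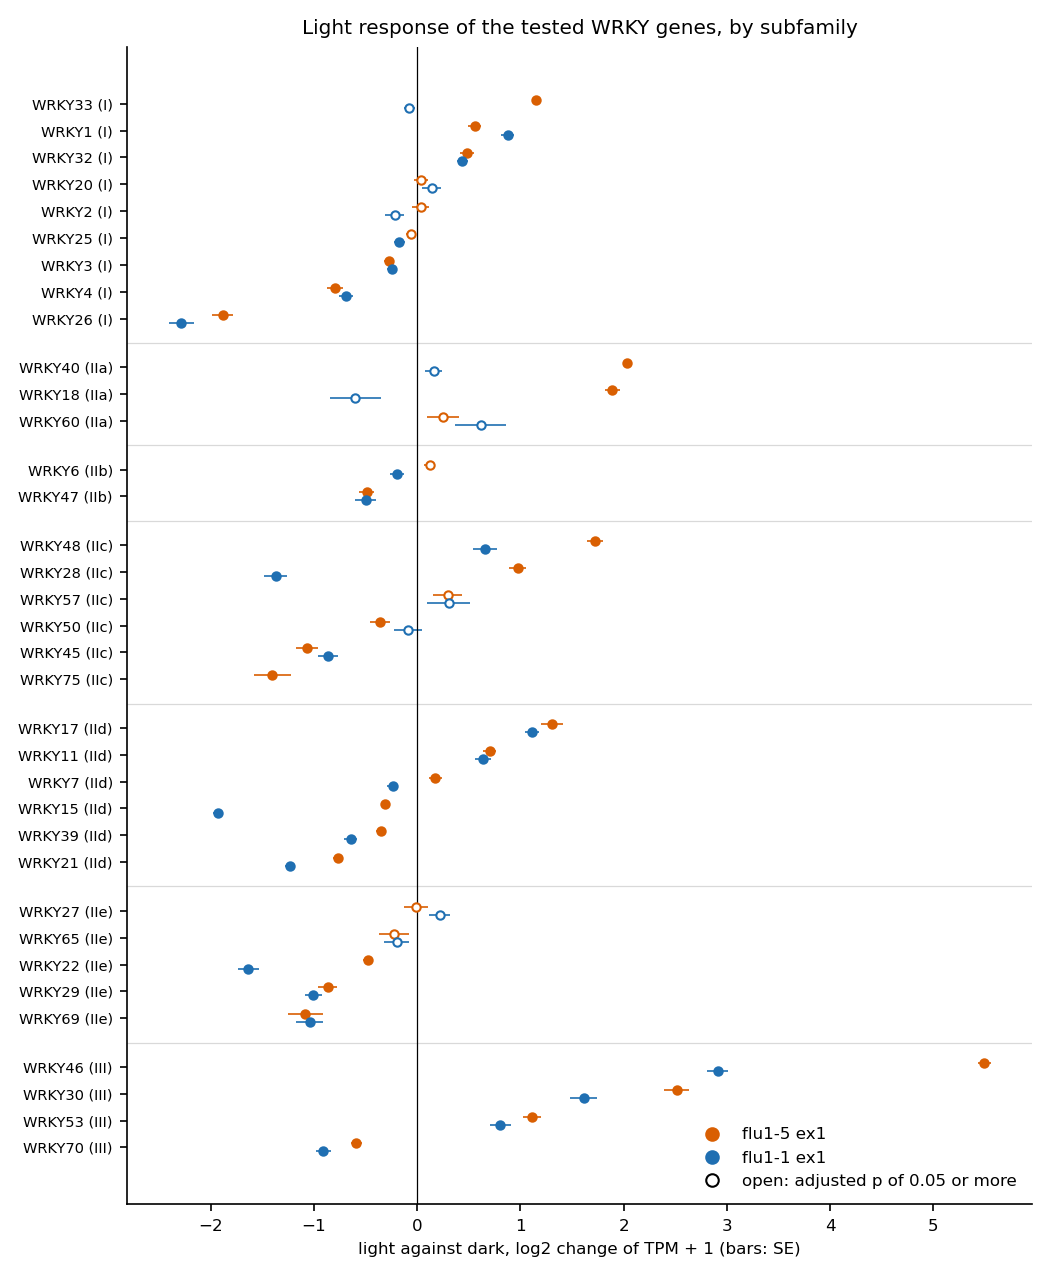
Points show the light response of each tested WRKY gene (light against dark, change in log2(TPM + 1), horizontal axis; bars are SE) in flu1-5 ex1 and flu1-1 ex1, grouped by subfamily, with open points where the adjusted p was 0.05 or more. WRKY46 lies farthest to the right in both lines, at 5.49 and 2.91, and WRKY26 farthest to the left, at -1.88 and -2.28.

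The light response itself differed between the lines for 16 of 35 members, where 29.6% of all genes were called. It was called higher in flu1-5 ex1 than in flu1-1 ex1 for 14, where 11.3% of all genes were, and lower for 2, WRKY1 and WRKY75, where 18.3% of all genes were. Without WRKY30, WRKY46 and WRKY75 these counts were 12 and 1 of 32. For 8 members it was higher by at least 2-fold, where 2.03% of all genes were, and for 0 it was lower by as much, where 0.796% were. These 8, which include WRKY46 as a description, come from 6 of the 7 subfamilies. They were WRKY15, WRKY18, WRKY22, WRKY28, WRKY33, WRKY40, WRKY46 and WRKY48. They also differ in how they moved, since WRKY15 and WRKY22 were lower in light in both lines and had the smaller fall in flu1-5 ex1.

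The lines were also set against each other within each treatment, in a fit that shares its libraries with the test of the difference. In dark, 13 of 35 members were called higher in flu1-5 ex1 than in flu1-1 ex1, where 14.7% of all genes were, and WRKY21 was the 1 member called lower, where 5.68% were. In light, 21 were called higher, where 18.1% of all genes were, and 0 were called lower, where 21% were, so that 39.1% of all genes were called either way. Without WRKY30, WRKY46 and WRKY75, 10 were higher and 1 lower in dark and 19 were higher in light. At least 2-fold higher in light were 12 members, where 3.1% of all genes were. These 12 include WRKY30 and WRKY46 as descriptions. WRKY1 was the member with an unadjusted p under 0.05 and a lower level in light, at -0.17 (adjusted p = 0.0513). For WRKY1, limma called this difference with quantile normalization (adjusted p = 0.0188), without flu1-5 ex1 light replicate 2 (adjusted p = 0.0271) and without flu1-1 ex1 dark replicate 2 (adjusted p = 0.0336). The median line difference over the members was 0.15 in dark and 0.31 in light on the log2(TPM + 1) scale, where that of all genes was 0.04 in dark and -0.02 in light. Over all genes, quantile normalization changed the split in dark to 1832 higher and 1483 lower, from 2618 and 1012, and 12 members were then called higher and 1 lower.

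The 12 members called higher in flu1-5 ex1 under both treatments were WRKY6, WRKY11, WRKY22, WRKY25, WRKY30, WRKY33, WRKY40, WRKY45, WRKY46, WRKY48, WRKY53 and WRKY70. Another 8, WRKY7, WRKY15, WRKY17, WRKY18, WRKY26, WRKY28, WRKY39 and WRKY47, were called higher in light and not called in dark, and WRKY75 was called higher in dark and not called in light. WRKY21 was called lower in dark and higher in light. For the other 13 neither comparison was called. WRKY30, WRKY46 and WRKY75 had a group mean under 1 TPM in this fit, so their calls are descriptions. The share of all genes with each of these patterns was not counted, so the patterns are given as a list only.

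**Figure D3:**
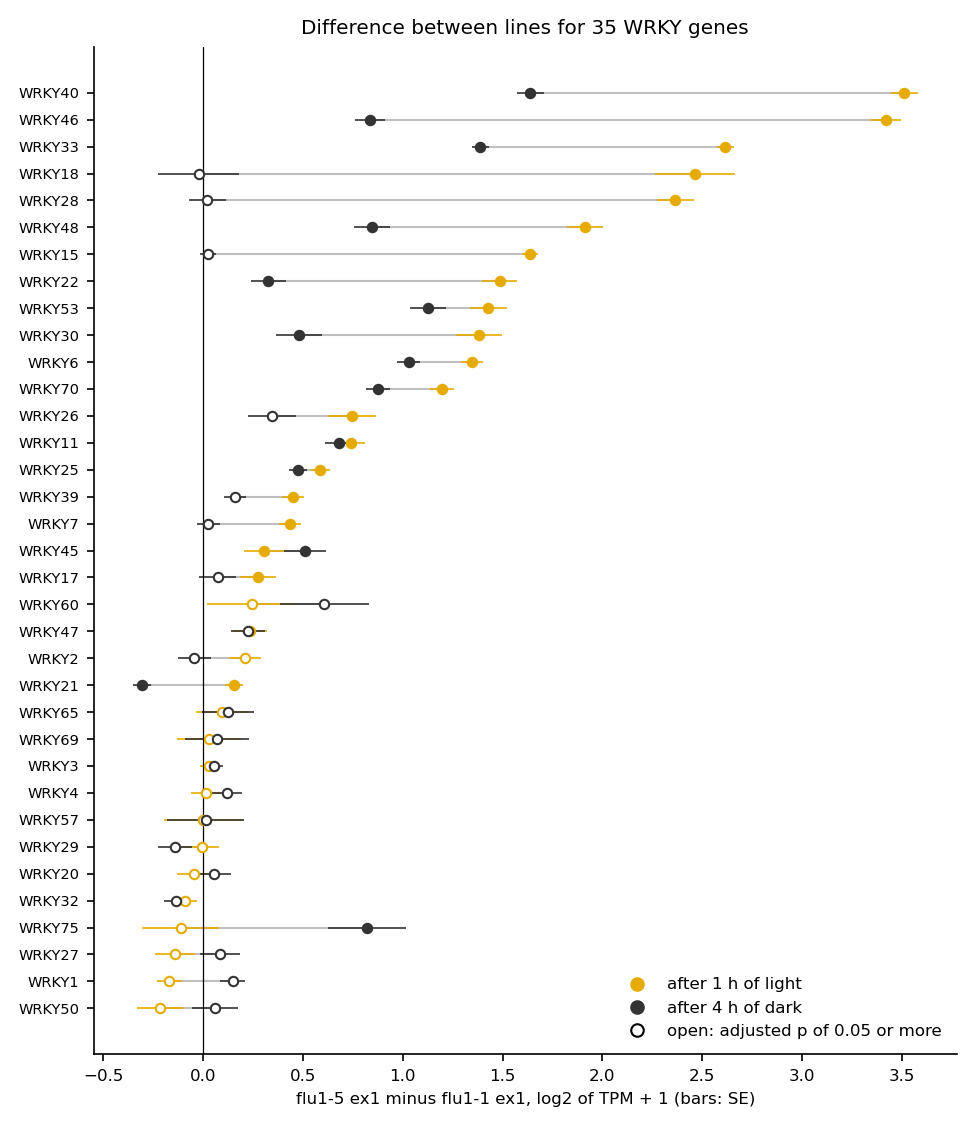
Points show the line difference (flu1-5 ex1 minus flu1-1 ex1, difference in log2(TPM + 1), horizontal axis; bars are SE) for 35 WRKY genes after 1 h of light and after 4 h of dark, joined by a grey line and ordered by the difference in light. WRKY40, WRKY46 and WRKY33 lead in light, at 3.51, 3.42 and 2.62, while WRKY18, WRKY28 and WRKY15 lie at -0.02, 0.02 and 0.02 in dark and at 2.47, 2.36 and 1.64 in light.

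Subfamily IIa holds WRKY18, WRKY40 and WRKY60, which form homodimers and heterodimers and act in defence and abscisic acid signalling. WRKY40 is also a known repressor of nuclear genes for stressed mitochondria and chloroplasts. WRKY40 (AT1G80840) had 202, 193 and 187 TPM in flu1-5 ex1 light, 47.3, 45.4 and 47.0 TPM in flu1-5 ex1 dark, 17.6, 15.6 and 15.05 TPM in flu1-1 ex1 light, and 13.9, 15.9 and 13.2 TPM in flu1-1 ex1 dark. Every flu1-5 ex1 light library lay above all others, every flu1-5 ex1 dark library lay above both flu1-1 ex1 groups, and the light and dark libraries of flu1-1 ex1 overlapped. The mean in light was 4.16 times that in dark in flu1-5 ex1, with a log2(TPM + 1) change of 2.03 (SE 0.039, adjusted p = 6.04e-10), and the change in flu1-1 ex1 was 0.16 (SE 0.084, adjusted p = 0.116). Without flu1-1 ex1 dark replicate 2 the change of WRKY40 in flu1-1 ex1 was called (0.23, adjusted p = 0.0333), as it was from the p-value in the authors' deposited table (adjusted p = 0.0137). The difference between these responses was 1.87 (SE 0.095, adjusted p = 1.44e-08). The line difference was 3.51 (SE 0.067, adjusted p = 2.94e-13) in light and 1.64 (SE 0.067, adjusted p = 2.08e-09) in dark.

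WRKY18 (AT4G31800) had 36.6, 36.8 and 32.8 TPM in flu1-5 ex1 light, 8.27, 9.65 and 8.54 TPM in flu1-5 ex1 dark, 3.71, 5.50 and 8.33 TPM in flu1-1 ex1 light, and 8.87, 7.44 and 10.9 TPM in flu1-1 ex1 dark. The flu1-5 ex1 light libraries stood above all others, while the remaining 3 groups overlapped in part. Its light response was 1.89 (SE 0.072, adjusted p = 4.22e-08) in flu1-5 ex1 and -0.60 (SE 0.25, adjusted p = 0.0663) in flu1-1 ex1, and the difference was 2.49 (SE 0.28, adjusted p = 5.9e-05). In flu1-1 ex1 the light libraries spread from 3.71 to 8.33 TPM, and without light replicate 3 the lower level in light was called (-0.85, adjusted p = 0.00459), as it was with quantile normalization (adjusted p = 0.0251) and from the p-value in the authors' deposited table (adjusted p = 0.0401). That lower level was also called with the replicate number as a block (adjusted p = 0.0113). In dark the lines differed by -0.02 (adjusted p = 0.955), and in light by 2.47 (adjusted p = 1.6e-06).

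WRKY60 was low, with 2.47, 3.33 and 3.15 TPM in flu1-5 ex1 light, 3.07, 1.85 and 2.19 TPM in flu1-5 ex1 dark, 2.04, 2.10 and 2.99 TPM in flu1-1 ex1 light, and 1.76, 0.46 and 1.60 TPM in flu1-1 ex1 dark. All flu1-1 ex1 dark libraries lay below those of the other 3 groups, which overlapped. None of the 5 comparisons of WRKY60 was called, the smallest adjusted p being 0.0514 for light in flu1-1 ex1, where the change was 0.61. That change of WRKY60 was called with a pseudocount of 5 (adjusted p = 0.0392) and without flu1-1 ex1 dark replicate 1 or 3 (adjusted p = 0.0282 and 0.0459). With the replicate number as a block it was called as well (adjusted p = 0.0241). The light response in flu1-5 ex1 was called without its dark replicate 1 (0.40, adjusted p = 0.0403), and the line difference in dark without flu1-1 ex1 dark replicate 1 (0.77, adjusted p = 0.0425).

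**Figure D4:**
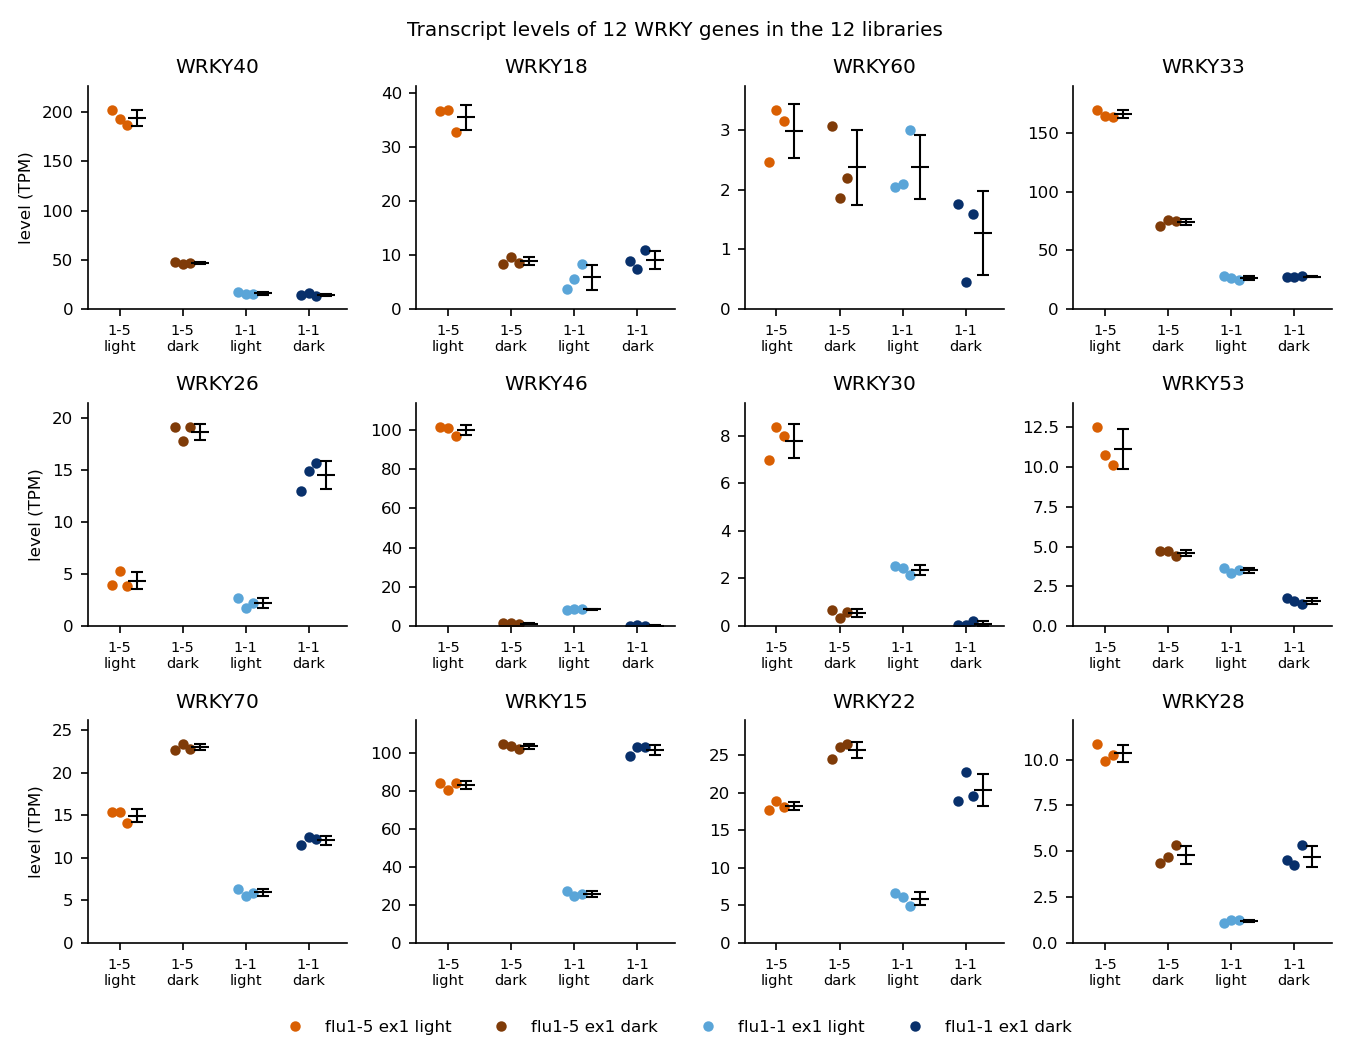
Dots show the level (TPM, vertical axis, linear from 0) of 12 WRKY genes in each library, with bars for the mean ± SD of 3 libraries beside them. WRKY40, WRKY18, WRKY33, WRKY46, WRKY30, WRKY53 and WRKY28 are highest in flu1-5 ex1 light, and WRKY15, WRKY22, WRKY26 and WRKY70 are higher in dark than in light in both lines.

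Subfamily III holds the member with the largest light response. WRKY46 acts with WRKY53 and WRKY70 in basal defence and with WRKY54 and WRKY70 in brassinosteroid-regulated growth. WRKY46 (AT2G46400) had 102, 101 and 96.9 TPM in flu1-5 ex1 light, 1.30, 1.33 and 1.09 TPM in flu1-5 ex1 dark, 7.96, 8.57 and 8.77 TPM in flu1-1 ex1 light, and 0.189, 0.330 and 0.249 TPM in flu1-1 ex1 dark. Both light groups lay above both dark groups, and flu1-5 ex1 lay above flu1-1 ex1 within each treatment. In flu1-5 ex1 the mean in light was 80.4 times that in dark, with a log2(TPM + 1) change of 5.49 (SE 0.062, adjusted p = 4.52e-11). In flu1-1 ex1 the change was 2.91 (SE 0.10, adjusted p = 2.32e-08), and because dark levels there were under 1 TPM this scale understates it. In that line WRKY46 passed the filter through its light libraries alone, so the call there is a description. The responses differed by 2.58 (SE 0.10, adjusted p = 2.14e-09). In the fit of both lines the flu1-1 ex1 dark mean of WRKY46 was again under 1 TPM. This difference and the line differences that follow are therefore descriptions too. In light the mean in flu1-5 ex1 was 11.8 times that in flu1-1 ex1, a line difference of 3.42 (adjusted p = 1.08e-12), and in dark the difference was 0.84 (adjusted p = 3.06e-06).

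WRKY30 (AT5G24110), a member induced early by oxidative stress, had 6.99, 8.37 and 7.98 TPM in flu1-5 ex1 light, 0.664, 0.354 and 0.607 TPM in flu1-5 ex1 dark, 2.52, 2.45 and 2.13 TPM in flu1-1 ex1 light, and 0.0501, 0.0501 and 0.212 TPM in flu1-1 ex1 dark. Light libraries lay above dark libraries in both lines, and flu1-5 ex1 above flu1-1 ex1 under both treatments. It passed the filter on low values through its light groups alone, so its calls are given as descriptions. Its light response was 2.51 (SE 0.12, adjusted p = 1.81e-07) in flu1-5 ex1 and 1.61 (SE 0.13, adjusted p = 5.5e-06) in flu1-1 ex1. The difference between these was 0.90 (SE 0.16, adjusted p = 0.00113), but it depends on the scale, being -0.04 (adjusted p = 0.962) with a pseudocount of 0.1, and the dark difference of 0.48 (adjusted p = 0.0103) was not called with a pseudocount of 5 (adjusted p = 0.108).

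WRKY53 (AT4G23810), a regulator of leaf senescence, had 12.5, 10.8 and 10.13 TPM in flu1-5 ex1 light, 4.73, 4.70 and 4.38 TPM in flu1-5 ex1 dark, 3.68, 3.31 and 3.50 TPM in flu1-1 ex1 light, and 1.76, 1.55 and 1.41 TPM in flu1-1 ex1 dark. The 4 groups did not overlap, and they stood in that order from high to low. It responded to light by 1.11 (SE 0.090, adjusted p = 6.1e-06) in flu1-5 ex1 and 0.81 (SE 0.10, adjusted p = 0.00012) in flu1-1 ex1, and the difference between them, 0.30 (adjusted p = 0.0947), was not called. With a pseudocount of 5 it was called (0.38, adjusted p = 0.00239). The line difference was 1.43 (SE 0.091, adjusted p = 3.69e-08) in light and 1.125 (SE 0.091, adjusted p = 1.3e-06) in dark.

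WRKY70, which balances salicylic acid against jasmonate signalling, fell in light in both lines. It had 15.4, 15.4 and 14.1 TPM in flu1-5 ex1 light, 22.7, 23.4 and 22.8 TPM in flu1-5 ex1 dark, 6.37, 5.57 and 5.93 TPM in flu1-1 ex1 light, and 11.5, 12.5 and 12.2 TPM in flu1-1 ex1 dark. Here the dark groups lay above the light group of the same line, and both flu1-5 ex1 groups lay above both flu1-1 ex1 groups. The light response was -0.59 (SE 0.054, adjusted p = 1.43e-05) in flu1-5 ex1 and -0.91 (SE 0.073, adjusted p = 4.91e-06) in flu1-1 ex1. The difference of 0.32 (SE 0.085, adjusted p = 0.0121) was not called with a pseudocount of 5 (adjusted p = 0.0905). Line differences were 1.198 (adjusted p = 3.08e-09) in light and 0.88 (adjusted p = 2.5e-07) in dark. The 4 tested members of subfamily III, which are these genes, were called higher in flu1-5 ex1 under both treatments, WRKY30 and WRKY46 being counted as descriptions. Of all genes, 14.7% were called higher in dark and 18.1% in light, and the share called higher in both was not counted.

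Subfamily I had 9 tested members, of which 3 were higher and 3 lower in light in flu1-5 ex1, and 2 were higher and 4 lower in flu1-1 ex1. Of all genes, 38.4% were called higher and 29.3% lower in flu1-5 ex1, and 44% higher and 28.6% lower in flu1-1 ex1. WRKY33 (AT2G38470), a substrate of the kinases MPK3 and MPK6 that is required for camalexin synthesis and resistance to Botrytis, had 169.8, 164 and 164 TPM in flu1-5 ex1 light, 70.9, 76.1 and 75.01 TPM in flu1-5 ex1 dark, 27.9, 26.2 and 24.7 TPM in flu1-1 ex1 light, and 27.4, 27.4 and 28.2 TPM in flu1-1 ex1 dark. The flu1-5 ex1 light libraries were highest, the flu1-5 ex1 dark libraries came next, and both flu1-1 ex1 groups were lowest and overlapped. The light response was 1.15 (SE 0.037, adjusted p = 1.34e-08) in flu1-5 ex1 and -0.07 (SE 0.052, adjusted p = 0.227) in flu1-1 ex1, with a difference of 1.23 (SE 0.061, adjusted p = 1.36e-08). With quantile normalization the change in flu1-1 ex1 was called lower (-0.21, adjusted p = 0.00665), and it was also called from the p-value in the authors' deposited table (adjusted p = 0.000626). The mean of WRKY33 in flu1-5 ex1 was 6.32 times that in flu1-1 ex1 in light and 2.68 times in dark, line differences of 2.62 (adjusted p = 1.22e-13) in light and 1.39 (adjusted p = 1.56e-10) in dark.

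WRKY26 and WRKY25 are close relatives of WRKY33 that act with it in heat responses. WRKY26 (AT5G07100) had 3.96, 5.27 and 3.88 TPM in flu1-5 ex1 light, 19.1, 17.7 and 19.1 TPM in flu1-5 ex1 dark, 2.69, 1.73 and 2.19 TPM in flu1-1 ex1 light, and 13.0, 14.9 and 15.7 TPM in flu1-1 ex1 dark. Dark libraries lay far above light libraries in both lines, with light responses of -1.88 (SE 0.10, adjusted p = 4.46e-07) in flu1-5 ex1 and -2.28 (SE 0.12, adjusted p = 3.6e-07) in flu1-1 ex1. The difference of 0.40 (adjusted p = 0.0944) was not called, except without flu1-1 ex1 light replicate 1 (0.51, adjusted p = 0.0348), while the level in light was higher in flu1-5 ex1 by 0.75 (adjusted p = 0.00025). In dark the lines did not overlap for WRKY26, but limma did not call the difference. It was called with a pseudocount of 5 (0.28, adjusted p = 0.0133). It was also called at 0.345 without flu1-1 ex1 light replicate 1 or 2 (adjusted p = 0.041 and 0.0401) or flu1-5 ex1 light replicate 2 (adjusted p = 0.0357). WRKY25 (AT2G30250) averaged 29.2 TPM in flu1-5 ex1 light, 30.5 TPM in flu1-5 ex1 dark, 19.1 TPM in flu1-1 ex1 light and 21.7 TPM in flu1-1 ex1 dark, and was higher in flu1-5 ex1 under both treatments, by 0.59 (adjusted p = 3.12e-07) in light and 0.47 (adjusted p = 7.53e-06) in dark. Its light response was -0.06 (adjusted p = 0.247) in flu1-5 ex1 and -0.17 (adjusted p = 0.0169) in flu1-1 ex1. The call in flu1-1 ex1 was lost without light replicate 2 (adjusted p = 0.0567) or dark replicate 1 (adjusted p = 0.0545), and with quantile normalization the response in flu1-5 ex1 was called as well (adjusted p = 0.00661), as it was from the p-value in the authors' deposited table (adjusted p = 0.000858).

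WRKY1 (AT2G04880) had 20.6, 23.8 and 22.4 TPM in flu1-5 ex1 light, 14.3, 14.8 and 15.2 TPM in flu1-5 ex1 dark, 24.1, 26.0 and 25.3 TPM in flu1-1 ex1 light, and 13.7, 12.1 and 13.9 TPM in flu1-1 ex1 dark. Light libraries lay above dark libraries in both lines. Its response to light was 0.56 (SE 0.063, adjusted p = 5.52e-05) in flu1-5 ex1 and 0.88 (SE 0.063, adjusted p = 2.48e-06) in flu1-1 ex1, so this rise was the smaller one in flu1-5 ex1, with a difference of -0.32 (adjusted p = 0.0181). WRKY32 (AT4G30935) averaged 17.5 TPM in flu1-5 ex1 light, 12.3 TPM in flu1-5 ex1 dark, 18.7 TPM in flu1-1 ex1 light and 13.6 TPM in flu1-1 ex1 dark, with responses of 0.48 (adjusted p = 0.000206) in flu1-5 ex1 and 0.44 (adjusted p = 0.000129) in flu1-1 ex1. WRKY3 and WRKY4, which act in resistance to Botrytis, were lower in light in both lines. WRKY3 averaged 23.8 TPM in flu1-5 ex1 light, 29.0 TPM in flu1-5 ex1 dark, 23.3 TPM in flu1-1 ex1 light and 27.9 TPM in flu1-1 ex1 dark, and WRKY4 averaged 12.1 TPM in flu1-5 ex1 light, 21.7 TPM in flu1-5 ex1 dark, 11.9 TPM in flu1-1 ex1 light and 19.9 TPM in flu1-1 ex1 dark. The response of WRKY3 was -0.27 (adjusted p = 0.00116) in flu1-5 ex1 and -0.25 (adjusted p = 0.000918) in flu1-1 ex1, and that of WRKY4 was -0.79 (adjusted p = 2.32e-05) in flu1-5 ex1 and -0.69 (adjusted p = 1.76e-05) in flu1-1 ex1. WRKY2 (AT5G56270), which acts in the first asymmetric division of the embryo, averaged 6.66 TPM in flu1-5 ex1 light, 6.47 TPM in flu1-5 ex1 dark, 5.62 TPM in flu1-1 ex1 light and 6.71 TPM in flu1-1 ex1 dark, and WRKY20 (AT4G26640) averaged 13.4 TPM in flu1-5 ex1 light, 13.0 TPM in flu1-5 ex1 dark, 13.9 TPM in flu1-1 ex1 light and 12.5 TPM in flu1-1 ex1 dark. Neither was called in any comparison. The lower level of WRKY2 in light in flu1-1 ex1 was called with quantile normalization (-0.40, adjusted p = 0.00394) and without light replicate 1 or dark replicate 3 (adjusted p = 0.0494 and 0.0341), and its line difference in light was called without light replicate 1 of flu1-5 ex1 or of flu1-1 ex1 (adjusted p = 0.0408 and 0.0491). With the replicate number as a block, the lower level of WRKY2 in flu1-1 ex1 was called too (adjusted p = 0.0444). WRKY20 was called in flu1-1 ex1 without light replicate 3 (0.23, adjusted p = 0.0402). From the p-values in the authors' deposited table, WRKY2 was called in flu1-5 ex1 (adjusted p = 0.00524) and in flu1-1 ex1 (adjusted p = 0.00169), and so was WRKY20 (adjusted p = 0.00607 in flu1-5 ex1 and 0.0316 in flu1-1 ex1).

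Subfamily IId proteins bind calmodulin, and all 6 listed members were called in light in both lines, where 67.8% of all genes were called in flu1-5 ex1 and 72.6% in flu1-1 ex1. WRKY15 (AT2G23320), a regulator of the response to oxidative and osmotic stress, had 84.2, 80.6 and 84.3 TPM in flu1-5 ex1 light, 105, 103 and 102 TPM in flu1-5 ex1 dark, 27.6, 24.5 and 25.9 TPM in flu1-1 ex1 light, and 98.7, 103 and 103 TPM in flu1-1 ex1 dark. The 2 dark groups overlapped, flu1-5 ex1 light lay below them, and flu1-1 ex1 light lay below all others. The light response was -0.31 (SE 0.033, adjusted p = 3.33e-05) in flu1-5 ex1 and -1.93 (SE 0.048, adjusted p = 2.68e-09) in flu1-1 ex1, a difference of 1.61 (SE 0.058, adjusted p = 7.69e-10). The mean in light was 3.19 times as high in flu1-5 ex1 as in flu1-1 ex1, a line difference of 1.64 (adjusted p = 3.77e-12), while the difference in dark was 0.02 (adjusted p = 0.745).

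WRKY21 (AT2G30590) had 16.8, 17.1 and 16.5 TPM in flu1-5 ex1 light, 28.5, 30.5 and 29.0 TPM in flu1-5 ex1 dark, 14.3, 15.8 and 14.9 TPM in flu1-1 ex1 light, and 35.4, 36.9 and 37.2 TPM in flu1-1 ex1 dark. Dark libraries lay above light libraries in both lines, and the lines changed places, flu1-5 ex1 being higher in light and lower in dark without overlap. The response was -0.77 (SE 0.048, adjusted p = 1.02e-06) in flu1-5 ex1 and -1.23 (SE 0.050, adjusted p = 5.94e-08) in flu1-1 ex1, and differed by 0.46 (adjusted p = 0.000172). The line difference in light of 0.15 (adjusted p = 0.0183) was not called with quantile normalization (adjusted p = 0.0804), without flu1-5 ex1 light replicate 2 (adjusted p = 0.0548) or without flu1-1 ex1 light replicate 1 (adjusted p = 0.0771). That in dark was -0.31 (adjusted p = 0.000362). WRKY39 (AT3G04670), a heat-responsive member, had 26.2, 28.1 and 26.3 TPM in flu1-5 ex1 light, 34.98, 34.97 and 33.8 TPM in flu1-5 ex1 dark, 20.7, 17.7 and 19.9 TPM in flu1-1 ex1 light, and 31.1, 29.5 and 32.1 TPM in flu1-1 ex1 dark. The 4 groups did not overlap, dark lying above light in both lines and flu1-5 ex1 above flu1-1 ex1 within each treatment. It fell by 0.35 in flu1-5 ex1 and by 0.64 in flu1-1 ex1 on the log2(TPM + 1) scale, and these responses differed by 0.29 (adjusted p = 0.014). The line difference of WRKY39 in dark was not called, except without flu1-1 ex1 light replicate 2 (0.16, adjusted p = 0.0276).

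WRKY11 and WRKY17, close relatives that act as negative regulators of resistance to Pseudomonas, rose in both lines. WRKY17 (AT2G24570) had 15.3, 16.0 and 16.0 TPM in flu1-5 ex1 light, 4.82, 5.72 and 6.89 TPM in flu1-5 ex1 dark, 12.7, 13.3 and 12.7 TPM in flu1-1 ex1 light, and 5.26, 5.75 and 5.29 TPM in flu1-1 ex1 dark. Light libraries lay above dark libraries in both lines, and the dark groups overlapped. The response was 1.31 (SE 0.11, adjusted p = 6.18e-06) in flu1-5 ex1 and 1.11 (SE 0.067, adjusted p = 7.51e-07) in flu1-1 ex1, and the difference of 0.20 (adjusted p = 0.267) was not called, except without flu1-5 ex1 dark replicate 3 (0.31, adjusted p = 0.0395). In light the lines differed by 0.27 (adjusted p = 0.0298), a call lost with quantile normalization (adjusted p = 0.0626), without flu1-5 ex1 light replicate 2 or 3 (adjusted p = 0.0767 and 0.0763) and without flu1-1 ex1 light replicate 1 or 3 (adjusted p = 0.077 and 0.0754). WRKY11 (AT4G31550) averaged 19.8 TPM in flu1-5 ex1 light, 11.8 TPM in flu1-5 ex1 dark, 11.4 TPM in flu1-1 ex1 light and 6.96 TPM in flu1-1 ex1 dark. Its responses of 0.70 (adjusted p = 1.46e-05) in flu1-5 ex1 and 0.64 (adjusted p = 7.45e-05) in flu1-1 ex1 had a difference of 0.06 (adjusted p = 0.68), and it was higher in flu1-5 ex1 in light by 0.74 and in dark by 0.68, both called.

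WRKY7 (AT4G24240), a negative regulator of defence, averaged 21.8 TPM in flu1-5 ex1 light, 19.2 TPM in flu1-5 ex1 dark, 15.8 TPM in flu1-1 ex1 light and 18.8 TPM in flu1-1 ex1 dark. It was called higher in light in flu1-5 ex1 at 0.18 (adjusted p = 0.031) and lower in flu1-1 ex1 at -0.23 (adjusted p = 0.00356), with a difference of 0.41 (adjusted p = 0.00177). The call in flu1-5 ex1 was lost with quantile normalization (0.05, adjusted p = 0.528) and without light replicate 1 (adjusted p = 0.0744), light replicate 2 (adjusted p = 0.1) or dark replicate 1 (adjusted p = 0.1).

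Subfamily IIc was split in direction. WRKY28, WRKY48 and WRKY8 are known substrates of the calcium-dependent kinases CPK4, CPK5, CPK6 and CPK11, and WRKY28 is a reported activator of the salicylic acid synthesis gene ICS1. WRKY28 (AT4G18170) had 10.9, 9.92 and 10.3 TPM in flu1-5 ex1 light, 4.36, 4.67 and 5.32 TPM in flu1-5 ex1 dark, 1.11, 1.24 and 1.26 TPM in flu1-1 ex1 light, and 4.54, 4.24 and 5.34 TPM in flu1-1 ex1 dark. The 2 dark groups overlapped, all flu1-5 ex1 light libraries lay above them and all flu1-1 ex1 light libraries below. The mean in light was 2.16 times that in dark in flu1-5 ex1 and 0.255 times in flu1-1 ex1, with log2(TPM + 1) changes of 0.97 (SE 0.085, adjusted p = 1.03e-05) in flu1-5 ex1 and -1.37 (SE 0.11, adjusted p = 5.15e-06) in flu1-1 ex1. The difference was 2.34 (SE 0.13, adjusted p = 3.61e-08), and flu1-5 ex1 exceeded flu1-1 ex1 in light by 2.36 (SE 0.093, adjusted p = 2.62e-10).

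WRKY48 (AT5G49520), a repressor of basal defence, averaged 13.3 TPM in flu1-5 ex1 light, 3.32 TPM in flu1-5 ex1 dark, 2.80 TPM in flu1-1 ex1 light and 1.41 TPM in flu1-1 ex1 dark. Its groups stood in this order from high to low without overlap. The response was 1.72 (adjusted p = 1.15e-07) in flu1-5 ex1 and 0.65 (adjusted p = 0.000823) in flu1-1 ex1, and the difference was 1.07 (adjusted p = 3.44e-05). WRKY45 and WRKY75, both linked to phosphate acquisition, fell in light in each line in which they were tested. WRKY45 (AT3G01970) had 7.19, 5.94 and 5.13 TPM in flu1-5 ex1 light, 13.7, 14.2 and 13.4 TPM in flu1-5 ex1 dark, 5.17, 4.17 and 4.78 TPM in flu1-1 ex1 light, and 8.83, 8.87 and 10.4 TPM in flu1-1 ex1 dark, with a response of -1.07 (SE 0.10, adjusted p = 2.07e-05) in flu1-5 ex1 and -0.86 (SE 0.098, adjusted p = 5.04e-05) in flu1-1 ex1. Dark libraries lay above light libraries in each line, the light groups overlapped, and the responses had a difference of -0.21 (adjusted p = 0.33). It was higher in flu1-5 ex1 by 0.51 (adjusted p = 0.0037) in dark and by 0.31 (adjusted p = 0.0339) in light, and the call in light was lost without flu1-5 ex1 light replicate 1 or 2 (adjusted p = 0.151 and 0.0632) and without flu1-1 ex1 light replicate 2 or 3 (adjusted p = 0.128 and 0.0626).

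WRKY75 (AT5G13080) had 0.196, 0.487 and 0.393 TPM in flu1-5 ex1 light, 1.92, 2.45 and 3.51 TPM in flu1-5 ex1 dark, 0.478, 0.190 and 0.782 TPM in flu1-1 ex1 light, and 0.843, 1.49 and 0.799 TPM in flu1-1 ex1 dark. The flu1-5 ex1 dark libraries lay above all others, and the 2 light groups overlapped. WRKY75 passed the filter through the dark libraries alone, so its calls are descriptions. The response in flu1-5 ex1 was -1.40 (SE 0.18, adjusted p = 0.000117), and the difference from flu1-1 ex1 was -0.93 (SE 0.28, adjusted p = 0.0216). That difference was not called with a pseudocount of 0.1 (adjusted p = 0.0733), without flu1-5 ex1 light replicate 1 (adjusted p = 0.0532), or without light replicate 3 (adjusted p = 0.0533) or dark replicate 3 (adjusted p = 0.0521) of flu1-1 ex1. The line difference in dark was 0.82 (adjusted p = 0.0092), and was not called with a pseudocount of 0.1 (adjusted p = 0.051).

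WRKY50 (AT5G26170), a repressor of jasmonate responses under salicylic acid, averaged 2.44 TPM in flu1-5 ex1 light, 3.41 TPM in flu1-5 ex1 dark, 3.03 TPM in flu1-1 ex1 light and 3.24 TPM in flu1-1 ex1 dark. It responded to light by -0.36 (adjusted p = 0.00931) in flu1-5 ex1, and its change in flu1-1 ex1 was -0.09 (adjusted p = 0.587). Without flu1-1 ex1 light replicate 3, the difference of the responses of WRKY50 was called (-0.42, adjusted p = 0.0374, against -0.28 (adjusted p = 0.238) with all libraries). The line difference in light was then called too (-0.36, adjusted p = 0.0149, against -0.22 (adjusted p = 0.168)). WRKY57 (AT1G69310), which acts in drought tolerance and senescence, averaged 6.73 TPM in flu1-5 ex1 light, 5.31 TPM in flu1-5 ex1 dark, 6.82 TPM in flu1-1 ex1 light and 5.31 TPM in flu1-1 ex1 dark and was called in none of the 5 comparisons. Its light response was 0.29 (adjusted p = 0.095) in flu1-5 ex1 and 0.31 (adjusted p = 0.217) in flu1-1 ex1, and it was called in flu1-5 ex1 without light replicate 3 (adjusted p = 0.0451) or dark replicate 1 (adjusted p = 0.0321) and in flu1-1 ex1 without light replicate 3 (adjusted p = 0.0361).

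Subfamily IIe was lower in light for 3 of 5 members in each line, and none was called higher, where 29.3% of all genes were called lower and 38.4% higher in flu1-5 ex1, and 28.6% lower and 44% higher in flu1-1 ex1. WRKY22 and WRKY29 are known from the kinase cascade downstream of the flagellin receptor. WRKY22 (AT4G01250) had 17.7, 18.8 and 18.0 TPM in flu1-5 ex1 light, 24.5, 26.1 and 26.5 TPM in flu1-5 ex1 dark, 6.62, 6.07 and 4.98 TPM in flu1-1 ex1 light, and 18.8, 22.7 and 19.5 TPM in flu1-1 ex1 dark. Dark libraries lay above light libraries in both lines, and flu1-1 ex1 light was lowest without overlap. The response was -0.47 (SE 0.051, adjusted p = 4.21e-05) in flu1-5 ex1 and -1.63 (SE 0.11, adjusted p = 1.15e-06) in flu1-1 ex1, a difference of 1.16 (SE 0.12, adjusted p = 1.35e-05). In light the mean in flu1-5 ex1 was 3.09 times that in flu1-1 ex1, a line difference of 1.49 (adjusted p = 1.52e-08). The dark difference of 0.33 (adjusted p = 0.0174) was not called with quantile normalization (adjusted p = 0.0537), without flu1-5 ex1 dark replicate 2 or 3 (adjusted p = 0.0531 and 0.0606) or without flu1-1 ex1 dark replicate 1 or 3 (adjusted p = 0.0739 and 0.0623).

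WRKY29 (AT4G23550) averaged 3.66 TPM in flu1-5 ex1 light, 7.49 TPM in flu1-5 ex1 dark, 3.67 TPM in flu1-1 ex1 light and 8.36 TPM in flu1-1 ex1 dark, with responses of -0.87 (adjusted p = 3.58e-05) in flu1-5 ex1 and -1.004 (adjusted p = 8.13e-06) in flu1-1 ex1 that had a difference of 0.14 (adjusted p = 0.424). WRKY69 (AT3G58710) had 1.55, 2.01 and 2.56 TPM in flu1-5 ex1 light, 6.79, 4.25 and 5.35 TPM in flu1-5 ex1 dark, 1.71, 1.91 and 2.27 TPM in flu1-1 ex1 light, and 5.58, 5.61 and 4.16 TPM in flu1-1 ex1 dark. Its light libraries lay below its dark libraries in both lines, and the lines overlapped within each treatment. The response was -1.08 (SE 0.17, adjusted p = 0.000483) in flu1-5 ex1 and -1.04 (SE 0.13, adjusted p = 9.92e-05) in flu1-1 ex1. WRKY27 (AT5G52830) averaged 2.39 TPM in flu1-5 ex1 light, 2.41 TPM in flu1-5 ex1 dark, 2.73 TPM in flu1-1 ex1 light and 2.21 TPM in flu1-1 ex1 dark, WRKY65 (AT1G29280) averaged 2.24 TPM in flu1-5 ex1 light, 2.82 TPM in flu1-5 ex1 dark, 2.04 TPM in flu1-1 ex1 light and 2.48 TPM in flu1-1 ex1 dark, and neither was called in any comparison. With quantile normalization WRKY65 was called lower in light in flu1-5 ex1 (adjusted p = 0.0412) and in flu1-1 ex1 (adjusted p = 0.0149), and in flu1-5 ex1 also without dark replicate 2 (adjusted p = 0.0189). From the p-values in the authors' deposited table, WRKY27 was called in flu1-5 ex1 (adjusted p = 0.0392) and in flu1-1 ex1 (adjusted p = 0.0196), and so was WRKY65 (adjusted p = 0.0395 in flu1-5 ex1 and 0.0232 in flu1-1 ex1).

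Subfamily IIb had 2 tested members. WRKY6 (AT1G62300), a regulator of senescence that also represses the phosphate exporter gene PHO1, had 19.8, 20.4 and 21.7 TPM in flu1-5 ex1 light, 18.9, 18.5 and 19.1 TPM in flu1-5 ex1 dark, 7.66, 7.31 and 7.51 TPM in flu1-1 ex1 light, and 9.33, 8.63 and 8.23 TPM in flu1-1 ex1 dark. Both flu1-5 ex1 groups lay above both flu1-1 ex1 groups, with a line difference of 1.35 (SE 0.057, adjusted p = 5.11e-10) in light and 1.03 (SE 0.057, adjusted p = 2.87e-08) in dark. Its light response was 0.12 (adjusted p = 0.0655) in flu1-5 ex1 and -0.19 (adjusted p = 0.0354) in flu1-1 ex1, and the difference was 0.32 (adjusted p = 0.00954). The response in flu1-5 ex1 was called from the p-value in the authors' deposited table (adjusted p = 0.00156). The call in flu1-1 ex1 was lost without any 1 of the 3 light libraries (adjusted p = 0.0571, 0.0891 and 0.0672) and without dark replicate 1 or 2 (adjusted p = 0.123 and 0.0689). That call was also lost with the replicate number as a block (adjusted p = 0.0522). WRKY47 (AT4G01720) averaged 7.14 TPM in flu1-5 ex1 light, 10.4 TPM in flu1-5 ex1 dark, 5.94 TPM in flu1-1 ex1 light and 8.79 TPM in flu1-1 ex1 dark, and its light response was -0.49 (adjusted p = 0.000267) in flu1-5 ex1 and -0.50 (adjusted p = 0.00187) in flu1-1 ex1. Its line difference in light, 0.23 (adjusted p = 0.0476), lay at the threshold and was lost without any 1 of 10 libraries, all but flu1-1 ex1 light replicate 1 and dark replicate 1, with an adjusted p between 0.0539 and 0.181. It was also lost with quantile normalization (adjusted p = 0.0946), with a pseudocount of 5 (adjusted p = 0.0546) and with no filter on low values (adjusted p = 0.0601).

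Kinases known to act on WRKY proteins, or on other kinases in the same cascades, were read from the same fits. Of 12 such genes, 9 were higher and 2 lower in light in flu1-5 ex1, and 7 were higher and 3 lower in flu1-1 ex1. Of all genes, 38.4% were called higher and 29.3% lower in flu1-5 ex1, and 44% higher and 28.6% lower in flu1-1 ex1. The median response was 0.50 in flu1-5 ex1 and 0.16 in flu1-1 ex1, where that of all genes was 0.05 in flu1-5 ex1 and 0.12 in flu1-1 ex1. MPK3, a kinase of WRKY33, had 251, 248 and 239 TPM in flu1-5 ex1 light, 80.3, 78.5 and 76.0 TPM in flu1-5 ex1 dark, 56.2, 54.0 and 52.6 TPM in flu1-1 ex1 light, and 53.1, 49.6 and 50.4 TPM in flu1-1 ex1 dark. As for WRKY33, the flu1-5 ex1 light libraries lay above flu1-5 ex1 dark and both flu1-1 ex1 groups lay lowest and overlapped. The light response of MPK3 was 1.64 (adjusted p = 1.07e-09) in flu1-5 ex1 and 0.09 (adjusted p = 0.0886) in flu1-1 ex1, and the difference was 1.55 (adjusted p = 4.94e-10). The change of MPK3 in flu1-1 ex1 was called from the p-value in the authors' deposited table (adjusted p = 0.000353).

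MPK6, which shares substrates with MPK3, averaged 44.8 TPM in flu1-5 ex1 light, 57.6 TPM in flu1-5 ex1 dark, 43.5 TPM in flu1-1 ex1 light and 57.5 TPM in flu1-1 ex1 dark, and fell by 0.35 in flu1-5 ex1 and by 0.39 in flu1-1 ex1. MKK4 and MKK5 phosphorylate both of these kinases. MKK4 averaged 42.6 TPM in flu1-5 ex1 light, 17.7 TPM in flu1-5 ex1 dark, 22.2 TPM in flu1-1 ex1 light and 11.9 TPM in flu1-1 ex1 dark and rose by 1.22 in flu1-5 ex1 and 0.85 in flu1-1 ex1, with a difference of 0.37 (adjusted p = 0.00132). MKK5 averaged 37.1 TPM in flu1-5 ex1 light, 16.0 TPM in flu1-5 ex1 dark, 36.6 TPM in flu1-1 ex1 light and 14.0 TPM in flu1-1 ex1 dark and rose by 1.17 in flu1-5 ex1 and 1.33 in flu1-1 ex1, with a difference of -0.16 (adjusted p = 0.175). Of the calcium-dependent kinases, CPK4 averaged 64.0 TPM in flu1-5 ex1 light, 25.0 TPM in flu1-5 ex1 dark, 30.4 TPM in flu1-1 ex1 light and 22.0 TPM in flu1-1 ex1 dark and its rise was larger in flu1-5 ex1 by 0.87 (adjusted p = 1.22e-06). CPK11 averaged 18.6 TPM in flu1-5 ex1 light, 61.9 TPM in flu1-5 ex1 dark, 12.6 TPM in flu1-1 ex1 light and 60.0 TPM in flu1-1 ex1 dark. It fell in both lines, by 1.68 in flu1-5 ex1 and by 2.17 in flu1-1 ex1. The light response was called higher in flu1-5 ex1 for 7 of the 12 kinases by limma, where 11.3% of all genes were, and lower for 0, also at an unadjusted p under 0.05, where 18.3% of all genes were called lower. MKK5 and MPK4 had a lower value there, MPK4 at -0.01 (adjusted p = 0.913).

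VQ proteins bind WRKY factors and modify their activity. Of 11 such genes, 9 were tested in flu1-5 ex1, with 5 higher and 1 lower in light, and 8 in flu1-1 ex1, with 3 higher and 4 lower. The shares of all genes were 38.4% higher and 29.3% lower in flu1-5 ex1, and 44% higher and 28.6% lower in flu1-1 ex1. SIB1, an activator of WRKY33, had 37.7, 37.9 and 38.0 TPM in flu1-5 ex1 light, 1.67, 1.77 and 2.14 TPM in flu1-5 ex1 dark, 4.69, 5.10 and 4.41 TPM in flu1-1 ex1 light, and 0.760, 0.885 and 1.17 TPM in flu1-1 ex1 dark. Its 4 groups did not overlap, and both light groups lay above both dark groups, as for WRKY46. The response of SIB1 was 3.77 (adjusted p = 9.01e-10) in flu1-5 ex1 and 1.57 (adjusted p = 3.25e-06) in flu1-1 ex1, with a difference of 2.20 (adjusted p = 7.08e-08). In flu1-1 ex1 SIB1 passed the filter through its light libraries alone, so its call there is a description, and 2 of 7 were called higher without it. MKS1, which joins WRKY33 to the kinase MPK4, averaged 26.9 TPM in flu1-5 ex1 light, 19.6 TPM in flu1-5 ex1 dark, 6.81 TPM in flu1-1 ex1 light and 17.2 TPM in flu1-1 ex1 dark. It was higher in light in flu1-5 ex1 at 0.44 (adjusted p = 0.00024) and lower in flu1-1 ex1 at -1.22 (adjusted p = 2.34e-07), as WRKY28 was, with a difference of 1.65 (adjusted p = 1.5e-08).

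VQ10, a partner of WRKY8, averaged 15.4 TPM in flu1-5 ex1 light, 4.77 TPM in flu1-5 ex1 dark, 3.30 TPM in flu1-1 ex1 light and 1.13 TPM in flu1-1 ex1 dark, with responses of 1.51 (adjusted p = 3.78e-07) in flu1-5 ex1 and 1.03 (adjusted p = 0.00181) in flu1-1 ex1. The difference of these responses was not called, except with a pseudocount of 5 (0.63, adjusted p = 0.000561) and without flu1-1 ex1 dark replicate 3 (0.69, adjusted p = 0.0157). VQ12 was listed at 0 in all 6 flu1-1 ex1 libraries and had 20.6, 11.4 and 16.2 TPM in flu1-5 ex1 light and 4.24, 6.77 and 0.619 TPM in flu1-5 ex1 dark, so no fold between the lines is given. IKU1, known from seed size, averaged 8.17 TPM in flu1-5 ex1 light, 14.9 TPM in flu1-5 ex1 dark, 7.96 TPM in flu1-1 ex1 light and 15.4 TPM in flu1-1 ex1 dark and fell by 0.79 in flu1-5 ex1 and by 0.88 in flu1-1 ex1. In light, 8 of the 9 VQ genes in the fit of both lines were called higher in flu1-5 ex1 and 0 lower, where 18.1% of all genes were called higher and 21% lower. These 8 include VQ12 and SIB1, whose calls are descriptions since each had a group mean under 1 TPM, and without them 6 of 7 were called. IKU1 was the 1 not called, at 0.03 (adjusted p = 0.707).

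The reported WRKY target genes include enzymes, signalling genes and genes for mitochondrial proteins. Of 19 targets, 12 were tested in flu1-5 ex1, with 9 higher and 2 lower in light, and 11 in flu1-1 ex1, with 8 higher and 2 lower. Of all genes, 38.4% were called higher and 29.3% lower in flu1-5 ex1, and 44% higher and 28.6% lower in flu1-1 ex1. The median response was 0.93 in flu1-5 ex1 and 0.76 in flu1-1 ex1, where that of all genes was 0.05 in flu1-5 ex1 and 0.12 in flu1-1 ex1. OM66 and UPOX, genes for mitochondrial proteins induced by stress and reported targets of WRKY40, were the most raised. OM66 had 67.0, 63.0 and 64.0 TPM in flu1-5 ex1 light, 4.66, 4.10 and 4.84 TPM in flu1-5 ex1 dark, 25.2, 23.5 and 23.2 TPM in flu1-1 ex1 light, and 1.27, 1.49 and 1.56 TPM in flu1-1 ex1 dark. Light libraries lay far above dark libraries in both lines. Its responses were 3.57 (adjusted p = 4.45e-10) in flu1-5 ex1 and 3.35 (adjusted p = 2.1e-09) in flu1-1 ex1, with a difference of 0.22 (adjusted p = 0.115) that was called with a pseudocount of 5 (0.70, adjusted p = 2.85e-06). UPOX averaged 58.1 TPM in flu1-5 ex1 light, 11.2 TPM in flu1-5 ex1 dark, 69.3 TPM in flu1-1 ex1 light and 11.0 TPM in flu1-1 ex1 dark, with responses of 2.28 (adjusted p = 2.9e-08) in flu1-5 ex1 and 2.57 (adjusted p = 2.06e-06) in flu1-1 ex1 and a difference of -0.29 (adjusted p = 0.243).

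Of the 12 targets in the fit of both lines, 2 had a light response called lower in flu1-5 ex1 than in flu1-1 ex1 and 3 higher. Of all genes, 18.3% were called lower and 11.3% higher. The 2 called lower were named after their values were seen. AOX1A, the alternative oxidase gene of mitochondria, averaged 141 TPM in flu1-5 ex1 light, 57.2 TPM in flu1-5 ex1 dark, 101 TPM in flu1-1 ex1 light and 24.9 TPM in flu1-1 ex1 dark, and the difference in response was -0.70 (adjusted p = 5.07e-08). ACS6, an ethylene synthesis gene, averaged 45.3 TPM in flu1-5 ex1 light, 23.2 TPM in flu1-5 ex1 dark, 17.9 TPM in flu1-1 ex1 light and 4.85 TPM in flu1-1 ex1 dark, and the difference in response was -0.76 (adjusted p = 2.99e-05). Both were higher in flu1-5 ex1 in light and in dark. The 3 targets with a response called higher in flu1-5 ex1, named in the same way, were NPR1, a receptor of salicylic acid, at 0.61 (adjusted p = 6.92e-06), ABI5, a factor of abscisic acid signalling, at 1.00 (adjusted p = 0.0116), and CYP71A12, an enzyme of indole metabolism, at 0.51 (adjusted p = 0.0374). CYP71A12 passed the filter only through flu1-5 ex1 light, the other group means being under 1 TPM, so its calls are descriptions. Without it, 8 of 11 targets were higher in light in flu1-5 ex1, and 2 of 11 had the response called higher than in flu1-1 ex1. The higher response of CYP71A12 was lost with a pseudocount of 0.1 (adjusted p = 0.428) and without any 1 of 7 libraries, dark replicates 1 and 2 of flu1-5 ex1 and light replicates 2 and 3 and all dark replicates of flu1-1 ex1 (adjusted p between 0.0549 and 0.0854). ICS1, the salicylic acid synthesis gene, averaged 5.49 TPM in flu1-5 ex1 light, 7.22 TPM in flu1-5 ex1 dark, 4.97 TPM in flu1-1 ex1 light and 7.12 TPM in flu1-1 ex1 dark, and fell by 0.34 in flu1-5 ex1 and by 0.44 in flu1-1 ex1. PHO1, the target of WRKY6, averaged 7.501 TPM in flu1-5 ex1 light, 9.11 TPM in flu1-5 ex1 dark, 7.63 TPM in flu1-1 ex1 light and 9.43 TPM in flu1-1 ex1 dark. Its light response was -0.25 (adjusted p = 0.0249) in flu1-5 ex1 and -0.27 (adjusted p = 0.0192) in flu1-1 ex1, calls that were lost without light replicate 2 or dark replicate 1 or 2 of each line (adjusted p between 0.062 and 0.0808).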

How the data were processed

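The labels describe RNA-seq of 12 pooled seedling libraries, 3 in each of 4 groups. TPM values for 1 transcript of each of 27655 genes, and for each line the light-to-dark fold ratio and its p-value, are as the authors deposited them. A column with the highest signal of each gene, as the authors deposited it, was not used. The submitters' processing notes name kallisto 0.46.2, sleuth 0.30.0 and TAIR10, without their roles. TPM keep no read depth, so depth is unknown. The genotype label names flu1-1 and ex1 for every library. The flu allele was therefore taken from the sample descriptions.

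Each line was fitted with limma 3.58.1 (R 4.3.3, trend and robust options, two-sided) on log2(TPM + 1), over genes whose mean reached 1 TPM. Comparisons between lines used 1 fit of all 12 libraries over 26684 genes with the same listed transcript, and the 971 genes with different ones were left out. The p-values were adjusted by the Benjamini-Hochberg method over all genes tested, and a gene was called at an adjusted p under 0.05. The procedure was also run on simulated data with noise drawn independently for each library. That run cannot show how the fit behaves where libraries share a batch. Fold changes on this scale understate those of low genes. A ratio of means is of TPM.

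Members are the WRKY genes of the family list. The members and lists were chosen with earlier results of these data known, and nothing here is independent support for patterns already seen. Library values are given for the 4 members with the largest called changes in each direction in each comparison, the 3 highest members of any group, and WRKY18, WRKY40, WRKY60, WRKY33, WRKY46, WRKY53 and WRKY70. From each other list, the 2 called genes with the largest changes in each direction in each line were named. Alternatives were quantile normalization, pseudocounts of 0.1 and 5, no filter, a mean of at least 5 TPM, an adjusted p under 0.01, a 2-fold minimum, the deposited p-values, a replicate block and leaving out each library. Promoters were read from the RefSeq TAIR10.1 genome, which was not compared base by base with the authors' TAIR10 copy.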

Additional observations from a re-analysis of the deposited data

Results flagged for a closer look

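Each result here was picked out because the light response differed between the lines (flu1-5 ex1 minus flu1-1 ex1, difference in log2(TPM + 1), limma adjusted p under 0.05 over all genes tested). Genes listed at 0 in every library of a group were left out, which removed VQ12 at 2.04 (adjusted p = 0.0383). WRKY30, WRKY46, WRKY75, SIB1 and CYP71A12 had a group mean under 1 TPM, so their calls are descriptions. Among the WRKY genes, the difference was above 1 for WRKY46 at 2.58, WRKY18 at 2.49, WRKY28 at 2.34, WRKY40 at 1.87, WRKY15 at 1.61, WRKY33 at 1.23, WRKY22 at 1.16 and WRKY48 at 1.07. It was smaller for WRKY30 at 0.90, WRKY21 at 0.46, WRKY7 at 0.41, WRKY6 at 0.32, WRKY70 at 0.32 and WRKY39 at 0.29, and below 0 for WRKY1 at -0.32 and WRKY75 at -0.93.

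Among the kinases it was 1.55 for MPK3, 0.87 for CPK4, 0.48 for CPK11, 0.39 for CPK5, 0.37 for MKK4, 0.34 for MEKK1 and 0.25 for CPK6. Among the VQ genes it was 2.20 for SIB1, 1.65 for MKS1, 0.50 for SIB2, 0.44 for VQ9 and 0.37 for MVQ1. Among the targets it was 1.00 for ABI5, 0.61 for NPR1, 0.51 for CYP71A12, -0.70 for AOX1A and -0.76 for ACS6. The call of CPK6 was lost without any 1 of 8 libraries (adjusted p between 0.0576 and 0.0837), all but light replicates 1 of flu1-5 ex1 and 3 of flu1-1 ex1 and dark replicate 1 of each line. That of VQ9 was lost without light replicate 1 or 3 or dark replicate 2 or 3 of flu1-5 ex1, or light replicate 1 or dark replicate 2 of flu1-1 ex1 (adjusted p between 0.0573 and 0.0832).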

How the results depend on the processing

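The counts of called WRKY members stayed within 1.5 times of those reported under most alternatives, and the exceptions follow. The cause was not tested where a setting does not by itself remove genes or tighten the call. With a mean of at least 5 TPM, which tests fewer genes, 4 members were higher in light in flu1-1 ex1 and 1 had a light response called lower in flu1-5 ex1 than in flu1-1 ex1. With a pseudocount of 0.1 the count of that kind was also 1, and at an adjusted p under 0.01 it was 0. In light, 1 member was lower in flu1-5 ex1 than in flu1-1 ex1 with quantile normalization, with a pseudocount of 5 and with a mean of at least 5 TPM. At a change of at least 2-fold the members counted as higher and lower were 8 and 4 for light in flu1-5 ex1, 3 and 7 for light in flu1-1 ex1, 8 and 0 for the difference of light responses, 4 and 0 between lines in dark, and 12 higher between lines in light. Of all genes, 0.897% were called at least 2-fold higher in flu1-5 ex1 in dark, and 0.163% at least 2-fold lower. WRKY30, WRKY46 and WRKY75 are included as descriptions where they reached this change.

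Leaving out each library gave, for light in flu1-5 ex1, 12 to 14 members higher and 14 to 15 lower, and in flu1-1 ex1 7 to 10 higher and 14 to 17 lower. The difference of light responses gave 14 to 15 higher and 1 to 2 lower. Between lines, 11 to 15 were higher and 1 lower in dark, and 17 to 21 were higher and 0 to 1 lower in light.

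For the kinases, the 2-fold minimum left 4 higher and 1 lower in flu1-5 ex1 and 1 higher and 1 lower in flu1-1 ex1, and leaving out libraries gave 8 to 9 and 2 in flu1-5 ex1 and 5 to 7 and 3 in flu1-1 ex1. For the VQ genes, the 2-fold minimum left 3 higher and 0 lower in flu1-5 ex1 and 1 lower in flu1-1 ex1. Quantile normalization gave 3 VQ genes lower in flu1-5 ex1, as did the deposited p-values, and a mean of at least 5 TPM left 1 higher in flu1-1 ex1. Leaving out libraries gave 4 to 6 VQ genes higher and 1 lower in flu1-5 ex1 and 3 higher and 4 lower in flu1-1 ex1. For the targets, the 2-fold minimum left 5 higher and 0 lower in flu1-5 ex1 and 4 higher and 0 lower in flu1-1 ex1. A mean of at least 5 TPM left 5 higher in each line, and an adjusted p under 0.01 left 1 lower in each. Leaving out libraries gave 9 to 10 targets higher and 1 to 2 lower in flu1-5 ex1 and 6 to 7 higher and 1 to 2 lower in flu1-1 ex1.

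The direction turned for WRKY30, whose difference of light responses was -0.0353 (adjusted p = 0.962) with a pseudocount of 0.1, and for NPR1, whose response in flu1-1 ex1 was -0.0177 (adjusted p = 0.744) with quantile normalization. Same-numbered libraries of 2 groups correlated between -0.0615 and 0.153 in their deviations, and 2 of 12 such pairs correlated best with their own number. The value of 0.153 was for replicate 3 of flu1-1 ex1, light and dark. With 3 libraries in a group, such values cannot show that no batch was shared. With the number as a replicate block, 13 members were higher and 14 lower in light in flu1-5 ex1, 9 and 17 in flu1-1 ex1, 14 and 2 for the difference, 13 and 1 between lines in dark, and 21 and 0 in light, and 1 target was lower in light in flu1-5 ex1. TPM without depth give no counting error, so differences of members near 1 TPM, as WRKY75, WRKY60 and WRKY30 in dark, rest on the spread of 3 libraries.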
